A study of Mus musculus with 6 samples.

Results

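The tumours given 20 mg/kg of CH5424802 were compared with those given 4 mg/kg, so that the values show what the higher dose added to the lower. CH5424802, later named alectinib, is an oral inhibitor of the ALK receptor tyrosine kinase, and NCI-H2228 is a human lung adenocarcinoma cell line in which a rearrangement joins EML4 to the kinase part of ALK. Of the 6 arrays of the series, the 4 treated ones enter the comparison: 2 from tumours at 20 mg/kg and 2 from tumours at 4 mg/kg. The remaining 2, from tumours given vehicle (0 mg/kg), enter no difference. They add to the estimate of the spread, and for some of the genes their values are given as the level without drug. In all 3 groups the cells of this 1 line had been grown under the skin of SCID mice, which lack working T and B cells but keep their other host cells, and total RNA was taken 6 h after the dose. The labels name mouse as the organism, whereas the array carries probe sets for human transcripts, and how far mouse transcripts bind to them was not measured. Nothing in the labels ties the arrays of a group to separate animals, and p-values here measure only the spread between arrays, which may be technical.

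ALK fused to EML4 signals without its ligand. It feeds the RAS-RAF-MEK-ERK cascade, in which ERK drives short-lived transcripts that include its own brakes (the DUSP phosphatases and the Sprouty and SPRED proteins), the ETV transcription factors and cyclin D1. It also feeds PI3K and AKT, which keep the FOXO transcription factors out of the nucleus, and STAT3, which acts on cytokine feedback and survival genes.

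Each gene was read from 1 probe set, and genes with a mean log2 intensity of at least 4 were tested, 10271 of 19775. The arrays of a dose correlated across genes at r = 0.9947 (4 mg/kg) and 0.997 (20 mg/kg), and arrays of different doses at 0.9872 to 0.9899; genes are not independent replicates. The 4 mg/kg arrays lay further apart from each other, with a median absolute difference of 0.145 log2 units and 62 genes at least 2-fold apart, against 0.0756 and 17 genes for 20 mg/kg. The median log2 level of the tested genes was 8.591 and 8.755 at 4 mg/kg and, at 20 mg/kg, 8.559 and 8.653, so that 4 mg/kg replicate 2 was the highest. The 3′ to 5′ ratios of the GAPDH control probe sets ran from 0.844 to 0.993 in the treated arrays, with the highest in 20 mg/kg replicate 1. The control probe set at the 5′ end of 18S ribosomal RNA read 489 and 374 at 4 mg/kg, 573 and 637 at 20 mg/kg, and 1713 and 4058 with vehicle. No intensity lay under 4.578, the floor in each array, where 39.48% to 40.19% of all probe sets were found. The part of these differences between arrays in the results was not tested, beyond the fits that leave out 1 array.

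At 20 mg/kg 38 of the 10271 genes (0.37%) passed the test, 13 of them higher (0.127%) and 25 lower (0.243%) than at 4 mg/kg. The test was limma's, two-sided, with p-values adjusted over all tested genes and a threshold of 0.05. Differences are given as the log2 of the 20 mg/kg over the 4 mg/kg level with limma's standard error (n = 2 against 2 arrays), and the sizes of the falls ran further than those of the rises. No gene's arrays overlapped among the 38. A wider count, of genes at least 2-fold apart whose arrays did not overlap between the doses, held 193 genes (1.88%), 59 higher (0.574%) and 134 lower (1.3%); 22 of the 38 are among them. At 4-fold or more it held 2 higher and 21 lower genes, and at 8-fold or more none higher and 4 lower: DUSP6, SPRED1, CCND1 and CX3CL1, of which SPRED1 and CCND1 did not pass. Without overlap alone, at any size, were 3734 genes (36.4%), so absence of overlap by itself says little here. The median difference of all tested genes was -0.0058, with 4079 above 0, 5312 below 0 and 880 at exactly 0.

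The number that passed depends on few arrays. With the 4 treated arrays alone, no gene passed (lowest adjusted p 0.0634, limma), although 1318 genes had an unadjusted p under 0.05 against 1378 with all 6 arrays, and all 38 genes were among those 1318. Leaving out either of the vehicle arrays repeats that fit, because a vehicle array left alone adds nothing to the estimate of the spread. The fit without 4 mg/kg replicate 2 left 0 genes (1631 at an unadjusted p under 0.05), as did the one without 20 mg/kg replicate 2 (1361). Leaving out 20 mg/kg replicate 1 left 2 other genes, and leaving out 4 mg/kg replicate 1 gave 218 (92 higher, 126 lower), 22 of them among the 38. No gene of the 38 turned its direction in any of these fits. None could, because their arrays do not overlap between the doses. With arrays centred on their medians 494 genes passed, 227 higher and 267 lower, and with quantile normalization of the tested genes 330, 155 higher and 175 lower, so the split between higher and lower genes also moves with the scaling. The wider count split into 102 higher and 95 lower genes without 4 mg/kg replicate 2, and its lower genes numbered 214 when 4 mg/kg replicate 1 was left out. They numbered 202 when the same was done with 20 mg/kg replicate 2. An exact permutation test of 2 against 2 arrays cannot give a p under 0.333.

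**Figure D1:**
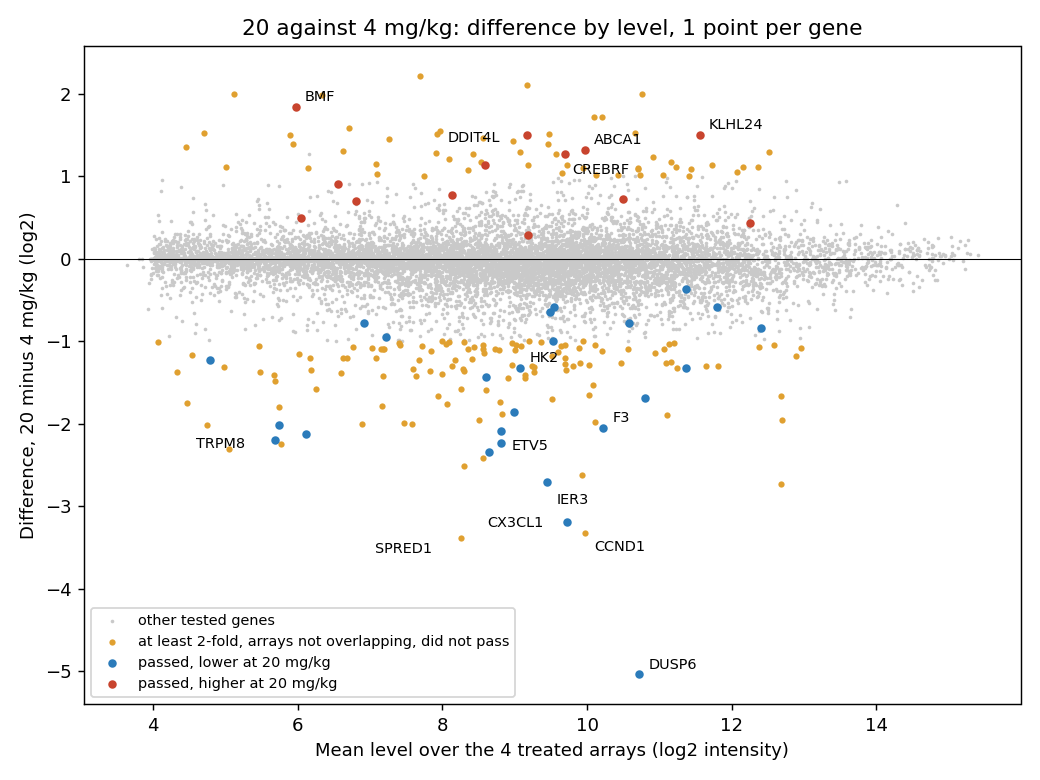
The difference between the doses (log2, 20 minus 4 mg/kg; vertical axis) against the mean level over the 4 treated arrays (log2 intensity; horizontal axis), with 1 point for each of the 10271 tested genes. Of the genes that passed, 25 (blue) lie below 0, down to DUSP6 at -5.04, and 13 (red) lie above 0, up to BMF at 1.84; orange points are at least 2-fold apart without overlap but did not pass.

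The 40 pathway lists, which share some members, held 494 tested genes. In most of them no member passed, and the medians lay between -1.77 and 0.286 log2 units. The lowest medians were those of MAPK pathway output (-1.77), the Sprouty and SPRED inhibitors (-1.72), and chemokines and cytokines (-0.885). The highest were those of the mTORC1 inhibitors (0.286) and of FOXO factors and targets (0.261). Lists are described by their counts and medians and were not tested as sets.

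**Figure D2:**
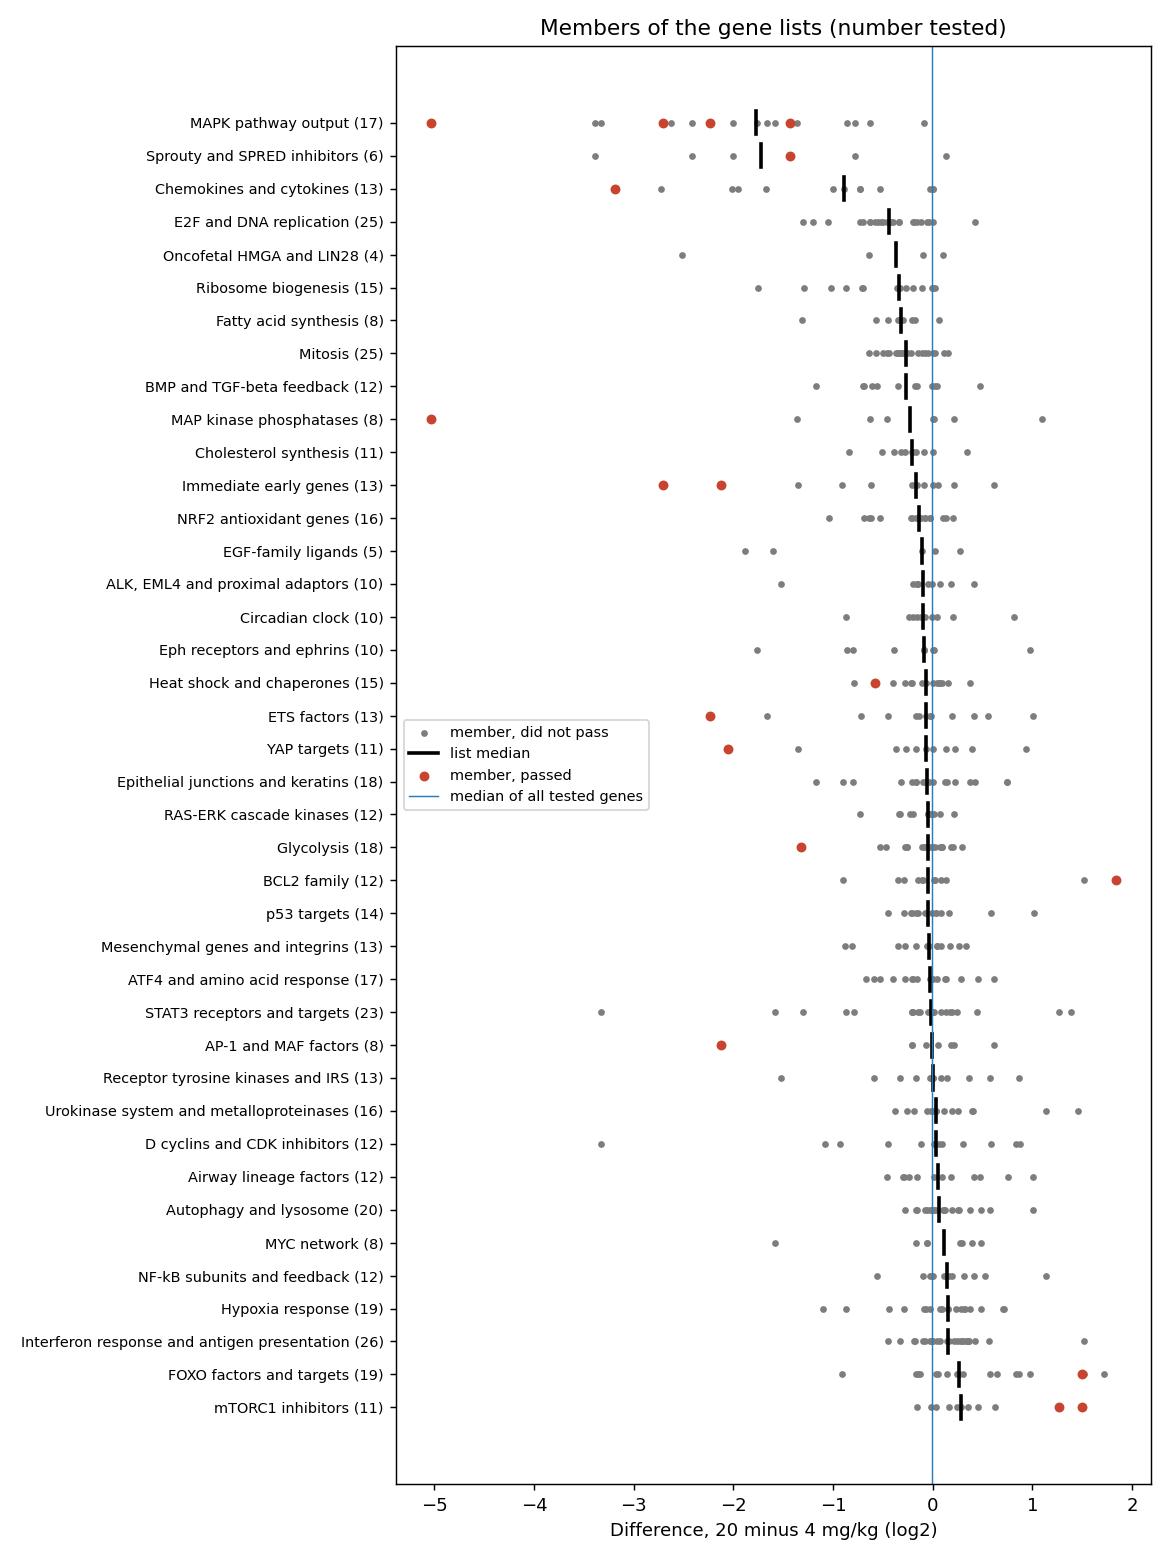
Differences between the doses (log2, 20 minus 4 mg/kg; horizontal axis) of the tested members of the 40 pathway lists, with 1 row per list and the number tested in parentheses; black bars are list medians and the blue line is the median of all tested genes. Members that passed (red) stand to the left of 0 mostly in the ERK-related lists, where shared members such as DUSP6 and IER3 are drawn in more than 1 row. To the right of 0 they stand in the BCL2 family, FOXO and mTORC1 inhibitor lists.

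Transcripts that follow ERK activity were lower at 20 mg/kg and held the largest fall of all. Of the 20 genes of the MAPK pathway output list 17 were tested and 3 (ETV4, FOSL1, SPRED3) lay under the level filter. All 17 lay lower at 20 mg/kg, with no overlap between the doses, 13 of them at least 2-fold, and 4 (DUSP6, IER3, ETV5 and SPRY1) passed. Over all tested genes 36.4% did not overlap, 1.3% were at least 2-fold lower without overlap and 0.243% passed lower. The list was chosen with earlier results of these arrays known.

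DUSP6, the phosphatase that removes the activating phosphates from ERK, read 13346 and 12806 with vehicle, 11041 and 8490 in the tumours at 4 mg/kg, and 312 and 279 in those at 20 mg/kg. Both of the latter lay far under the others, while the 4 mg/kg arrays lay a little under the vehicle arrays. The difference was -5.04 ± 0.15, 32.8-fold lower (adjusted p = 0.0211), the largest fall among all tested genes. A second probe set for DUSP6 read 6774 and 6061 at 4 mg/kg against 452 and 383 at 20 mg/kg, a difference of -3.94. The other dual-specificity phosphatases spread widely. Of the 10 genes of the MAP kinase phosphatase list 8 were tested and 1 passed lower (0.243% of all tested genes). The list's median of -0.23 was -0.00283 without 20 mg/kg replicate 2. DUSP4, a nuclear phosphatase of ERK, read 477 and 534 at 4 mg/kg against 211 and 183 at 20 mg/kg (-1.36 ± 0.19, adjusted p = 0.119). DUSP5, another nuclear ERK phosphatase, differed by -0.63 ± 0.19 (adjusted p = 0.299). DUSP10, which acts mainly on the stress kinases JNK and p38, lay the other way, at 567 and 799 against 1405 and 1475 (1.10 ± 0.19, adjusted p = 0.146).

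The Sprouty and SPRED proteins hold back RAS activation upstream of ERK. Of the 9 listed genes 6 were tested; 1 passed lower (0.243% of all tested genes) and 4 were at least 2-fold lower (1.3%). SPRY1 read 758 and 658 with vehicle, 635 and 643 at 4 mg/kg and, at 20 mg/kg, 232 and 242, and it fell by 1.43 ± 0.08 on the log2 scale (adjusted p = 0.0399). SPRED1 read 770 and 621 with vehicle, 833 and 1178 at 4 mg/kg and, at 20 mg/kg, 88.5 and 102. Both 4 mg/kg arrays thus lay above both vehicle arrays. The 10.5-fold difference of SPRED1 between the doses lay just outside the threshold (-3.39 ± 0.23, adjusted p = 0.0502). Its second, dimmer probe set read 46.5 and 53.9 against 50.4 and 28.4 and overlapped between the doses, so the size for SPRED1 rests on 1 probe set. SPRED2 read 719 and 1054 against 159 and 168 (-2.41 ± 0.24, adjusted p = 0.0812). SPRY2 and SPRY4 differed by -2.00 ± 0.38 (adjusted p = 0.172) and -0.78 ± 0.19 (adjusted p = 0.234). SPRY2 read 173 in both vehicle arrays and higher, 182 and 311, at 4 mg/kg. SPRY4 read 384 and 287 with vehicle and lower, 221, in both 4 mg/kg arrays. Among the tested members of the list only SPRED1 had a second probe set above the level filter. The list's median over second probe sets, -0.405, was thus the SPRED1 value and gives no separate reading of the list.

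The transcription factors downstream of ERK differed unevenly between the doses. ETV5, an ETS factor whose transcript follows ERK, read 1335 and 1391 with vehicle, 936 and 1007 at 4 mg/kg and, at 20 mg/kg, 201 and 213. Its 20 mg/kg arrays lay well under both other groups, and it fell by 2.23 ± 0.06 (4.69-fold lower, adjusted p = 0.0211). ETV1, its close relative, read 1714 and 1995 against 620 and 555 (-1.66 ± 0.18, adjusted p = 0.0883), with -0.421 on a second probe set. ETV4, the third of this subfamily, was within 1 log2 unit of the floor in every array and was not tested. Among the 13 tested ETS factors 1 passed lower (0.243% of all tested genes), and the list's median was -0.07. ELF3, an epithelial ETS factor, read 959 and 1507 against 2491 and 2350 (1.01 ± 0.40, adjusted p = 0.437).

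IER3, an immediate early gene linked to cell survival, read 3304 and 3503 with vehicle, 1728 and 1853 at 4 mg/kg and, at 20 mg/kg, 256 and 292, a step down at each dose. Between the doses it fell by 2.71 ± 0.09 (6.54-fold, adjusted p = 0.0211). MAFF, a small MAF factor that lacks a transactivation domain, read 143 and 147 at 4 mg/kg against 32.5 and 33.7 at 20 mg/kg and fell by 2.13 ± 0.14 (adjusted p = 0.0462), just inside the threshold. EGR1, often the first gene to follow ERK, hardly differed: it read 280 and 290 against 271 and 266 (-0.08 ± 0.18, adjusted p = 0.934). Of the 13 tested immediate early genes 2 passed lower (0.243% of all tested genes) and 3 were at least 2-fold lower (1.3%), with a median of -0.165. Of the 8 tested AP-1 and MAF factors 1 passed, MAFF, with a median of -0.01. FOS, FOSB and FOSL1 lay near the floor.

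The kinases and adaptors of the cascade itself did not share these sizes. None of the 12 tested RAS-ERK cascade genes passed or was 2-fold apart, their median was -0.05, and the furthest was HRAS (-0.73 ± 0.19, adjusted p = 0.259). At least 2-fold lower but not past the test were CCND1 and MYC, described with the cell cycle, and EPHA4, described with the receptors. PHLDA1, another transcript that follows ERK and named here after its values were seen, read 2559 and 2301 against 405 and 381 (-2.63, adjusted p = 0.0552), and -3.20 on a second probe set.

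**Figure D3:**
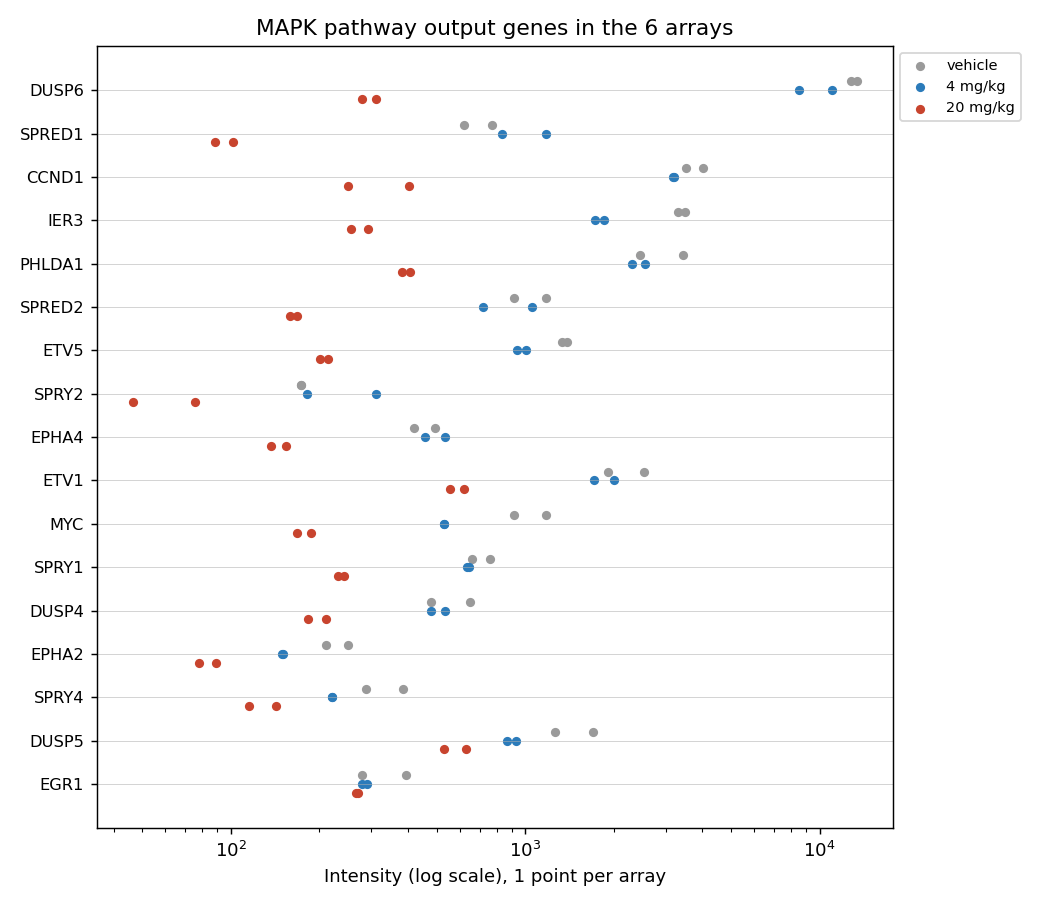
Intensities (log axis) of the 17 tested MAPK pathway output genes, with 1 point per array; rows are genes, ordered by the difference between the doses from DUSP6 to EGR1. The 20 mg/kg points (red) lie left of the 4 mg/kg points (blue) in every row, by 32.8-fold for DUSP6 and by little for EGR1. The 4 mg/kg points lie among or near the vehicle points (grey) for EPHA4 and SPRY1. They lie right of them for SPRED1 and left of them for IER3, ETV5 and MYC.

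At the receptor level the transcripts of the fusion's partners differed by little and did not pass. ALK read 448 and 545 at 4 mg/kg against 436 and 448 at 20 mg/kg (-0.16 ± 0.12, adjusted p = 0.667), and EML4 717 and 862 against 717 and 693 (-0.16 ± 0.11, adjusted p = 0.667). IRS1 is the docking protein that ALK and the insulin and IGF1 receptors share. It read 1673 and 1196 with vehicle, higher at 1824 and 1860 at 4 mg/kg, and 640 in both 20 mg/kg arrays (-1.52 ± 0.18, adjusted p = 0.0968). Among the 10 tested genes of the ALK, EML4 and adaptor list, it was the only one at least 2-fold apart. Its relative IRS2 differed by -0.16 ± 0.26 (adjusted p = 0.861).

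None of the 13 tested receptor tyrosine kinase and IRS genes passed, and their median was 0.00. ERBB3, a kinase-poor partner of the other ERBB receptors, read 2545 and 3140 at 4 mg/kg against 4953 and 5330 at 20 mg/kg (0.86 ± 0.18, adjusted p = 0.186). EGFR lay the other way, at 4636 and 5152 against 3342 and 3177 (-0.58 ± 0.07, adjusted p = 0.0922). The EGF-family ligands differed both ways. EREG, a ligand of EGFR, read 667 and 663 with vehicle, and TGFA 631 and 464, in both genes under the 4 mg/kg values. Between the doses EREG read 765 and 985 against 203 and 274 (-1.88 ± 0.21, adjusted p = 0.0914), and TGFA 681 and 678 against 200 and 253 (-1.60 ± 0.21, adjusted p = 0.105). EGF itself lay the other way, at 376 and 431 against 433 and 543 (0.27 ± 0.14, adjusted p = 0.593). None of the 5 tested ligands passed; 2 lay above and 3 below 0, with a median of -0.109. EPHA4, an ephrin receptor, read 456 and 535 against 137 and 154 (-1.76 ± 0.14, adjusted p = 0.0586), and its ligand family member EFNA1 518 and 593 against 1210 and 984 (0.98 ± 0.13, adjusted p = 0.118). Among the 10 tested Eph receptors and ephrins none passed.

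In the cell cycle, the D cyclin and MYC transcripts were far lower in value at 20 mg/kg without passing. CCND1, which encodes cyclin D1, read 3515 and 4014 with vehicle, 3194 and 3186 at 4 mg/kg and, at 20 mg/kg, 250 and 403. The 20 mg/kg arrays lay clear of all others but also apart from each other, and the 10.1-fold difference gave an adjusted p of 0.059 (-3.33 ± 0.26). A second probe set gave -2.11. MYC read 919 and 1180 with vehicle, 528 in both 4 mg/kg arrays, and 167 and 187 at 20 mg/kg (-1.58 ± 0.15, adjusted p = 0.0805). CDKN1B, the CDK inhibitor p27, read 3040 and 2635 with vehicle, 5158 and 6225 at 4 mg/kg and, at 20 mg/kg, 9526 and 10703, higher at each dose (0.83 ± 0.14, adjusted p = 0.145). None of the 12 tested D cyclins and CDK inhibitors passed, and none of the 8 tested genes of the MYC network.

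Genes of DNA replication and mitosis lay slightly lower as groups at 20 than at 4 mg/kg, with no member past the test. Of 25 tested E2F and replication genes 23 lay below 0, 18 without overlap, and 3 were at least 2-fold lower: RRM2 (-1.30), UHRF1 (-1.21) and CDC6 (-1.05), with adjusted p of 0.192, 0.259 and 0.172. Over all tested genes 36.4% did not overlap and 1.3% were at least 2-fold lower without overlap. The list's median, -0.44, moved to -0.25 when replicate 1 of the 20 mg/kg arrays was left out and to -0.66 when replicate 2 was. Of 25 tested mitosis genes 22 lay below 0 and 7 did not overlap between the doses, where 36.4% of all tested genes did not. Their median of -0.27 was -0.01 when 4 mg/kg replicate 2 was left out and -0.51 when replicate 1 of that dose was. Leaving out replicate 1 or 2 of the 20 mg/kg arrays gave -0.13 and -0.41, so the median rests on single arrays. A lower value than at 4 mg/kg was not always lower than without drug. CDK1 read 881 and 604 with vehicle, 1846 and 1710 at 4 mg/kg and, at 20 mg/kg, 1148 and 1374, still above vehicle. CDC20 read 105 and 113, then 105 and 128 and, at 20 mg/kg, 64.5 and 86.4, under vehicle. In tumour RNA, fewer cells of a type and less RNA per cell cannot be told apart.

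Among genes of growth and metabolism a few enzymes fell, and no list of growth or metabolism had more than 1 member past the test. HK2, the hexokinase that traps glucose in the cell, read 1670 and 1644 with vehicle, 853 in both 4 mg/kg arrays, and 351 and 332 at 20 mg/kg, lower at each dose; between the doses it fell by 1.32 ± 0.04 (2.50-fold, adjusted p = 0.0211). No other of the 18 tested glycolysis genes passed, where 0.243% of all tested genes passed lower, and the list's median was -0.04. GOT1, the cytosolic aspartate aminotransferase, read 966 in both 4 mg/kg arrays and 293 and 241 at 20 mg/kg, and fell by 1.86 ± 0.11 (adjusted p = 0.0421). SRM, which makes spermidine, read 158 in both 4 mg/kg arrays and 94.3 and 90.7 at 20 mg/kg (-0.78 ± 0.03, adjusted p = 0.0259). PA2G4, a protein of growth control and ribosome assembly, read 916 in both 4 mg/kg arrays and 603 and 616 at 20 mg/kg (-0.59 ± 0.04, adjusted p = 0.0444). Equal values in both arrays of a dose, as in these 3 genes and HK2, make the spread small: 7 of the 38 genes had such a tie, against 27.9% of all tested genes.

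None of the 15 tested ribosome biogenesis genes passed. Of them 13 lay below 0 and 3 were at least 2-fold lower: WDR43 (-1.75, with 1 of its 20 mg/kg arrays near the floor at 8.84), NIP7 (-1.29) and NOP16 (-1.02), with adjusted p of 0.23, 0.152 and 0.0527. Of all 10271 tested genes, 5312 lay below 0 and 1.3% were at least 2-fold lower without overlap. The list's median of -0.34 was -0.22 without 4 mg/kg replicate 2. No gene passed among 19 of hypoxia response (median 0.15), 11 of cholesterol synthesis (-0.20, and -0.08 without 4 mg/kg replicate 2), 8 of fatty acid synthesis (-0.32, and -0.19 without 4 mg/kg replicate 2) or 17 of the ATF4 and amino acid response (-0.03). FASN, the fatty acid synthase, read 908 and 1030 against 285 and 533 (-1.31 ± 0.34, adjusted p = 0.252), and -0.86 without 20 mg/kg replicate 1. PDK1, the kinase that shuts off pyruvate dehydrogenase, differed by -1.10 ± 0.24 (adjusted p = 0.204) on its brightest probe set and by 0.01 on the next.

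Members of the FOXO and mTORC1 inhibitor lists were 3 of the 13 genes that passed higher. Of 19 tested FOXO factors and targets, 15 lay above 0, 3 were at least 2-fold higher and 1, KLHL24, passed. Over all 10271 tested genes 4079 lay above 0, 0.574% were at least 2-fold higher without overlap and 0.127% passed higher. Of the 11 tested genes on the mTORC1 inhibitor list 9 lay above 0 and 2 passed, DDIT4L and CREBRF. Of the 2, only DDIT4L is an inhibitor of mTORC1, while CREBRF is a regulator of CREB3 factors. Both lists were chosen with earlier results of these arrays known.

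KLHL24, an adaptor of a ubiquitin ligase, read 697 and 721 with vehicle, 1803 and 1778 at 4 mg/kg and, at 20 mg/kg, 4857 and 5304, higher at each dose with no overlap. Between the doses it rose by 1.50 ± 0.05 (2.83-fold, adjusted p = 0.0259), and a second probe set gave 1.83. CREBRF, a regulator of CREB3 factors that is also linked to energy use, read 254 and 241 with vehicle, 528 and 543 at 4 mg/kg and, at 20 mg/kg, 1332 and 1242, the same order. It rose by 1.26 ± 0.05 (adjusted p = 0.0259). DDIT4L, an inhibitor of mTORC1 related to DDIT4, read 314 and 335 with vehicle, 335 and 350 at 4 mg/kg and, at 20 mg/kg, 1006 and 932. Here the 4 mg/kg arrays lay next to the vehicle arrays and both 20 mg/kg arrays stood apart, with a rise of 1.50 ± 0.06 (adjusted p = 0.0259).

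The other 18 tested members of the FOXO list did not pass; 4 of the 19 lay below 0. FBXO32, a ubiquitin ligase of muscle wasting and a textbook FOXO target, read 526 and 697 at 4 mg/kg against 2172 and 1830 at 20 mg/kg (1.72 ± 0.19, adjusted p = 0.0922), and 2.13 on a second probe set. CCNG2, a cyclin that slows the cycle, read 1467 and 1676 against 3026 and 3158 (0.98 ± 0.23, adjusted p = 0.227). KLF6 lay the other way, at 4173 and 4800 against 2595 and 2201 (-0.90 ± 0.12, adjusted p = 0.111). Of 20 tested autophagy and lysosome genes none passed and the median was 0.06; the furthest was ATG14, at 873 and 1077 against 1953 and 1954 (1.01 ± 0.17, adjusted p = 0.139).

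In the BCL2 family the 2 highest differences were those of BH3-only genes, whose proteins start cell death. BMF, a BH3-only protein, read 27.7 and 29.5 with vehicle, 31.6 and 34.9 at 4 mg/kg and, at 20 mg/kg, 122 and 116. Only the 20 mg/kg arrays stood above the vehicle level by more than 1 log2 unit, and BMF rose by 1.84 ± 0.07 (3.58-fold, adjusted p = 0.0259), the largest rise past the test. BCL2L11, the BH3-only protein BIM, read 839 and 1094 at 4 mg/kg against 2776 and 2722 at 20 mg/kg on its brightest probe set (1.52 ± 0.14, adjusted p = 0.0812). Its next probe set read 344 and 308 against 322 and 327, a difference of -0.01, so its 2 probe sets do not give 1 answer. BCL2L1, the survival protein BCL-XL, read 2230 and 2606 against 1419 and 1178 (-0.90 ± 0.31, adjusted p = 0.372). Among 12 tested members of the family 1 passed higher (0.127% of all tested genes). Of the 12, 6 lay above and 6 below 0, and the median was -0.04. Among 14 tested p53 targets none passed, with a median of -0.04.

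**Figure D4:**
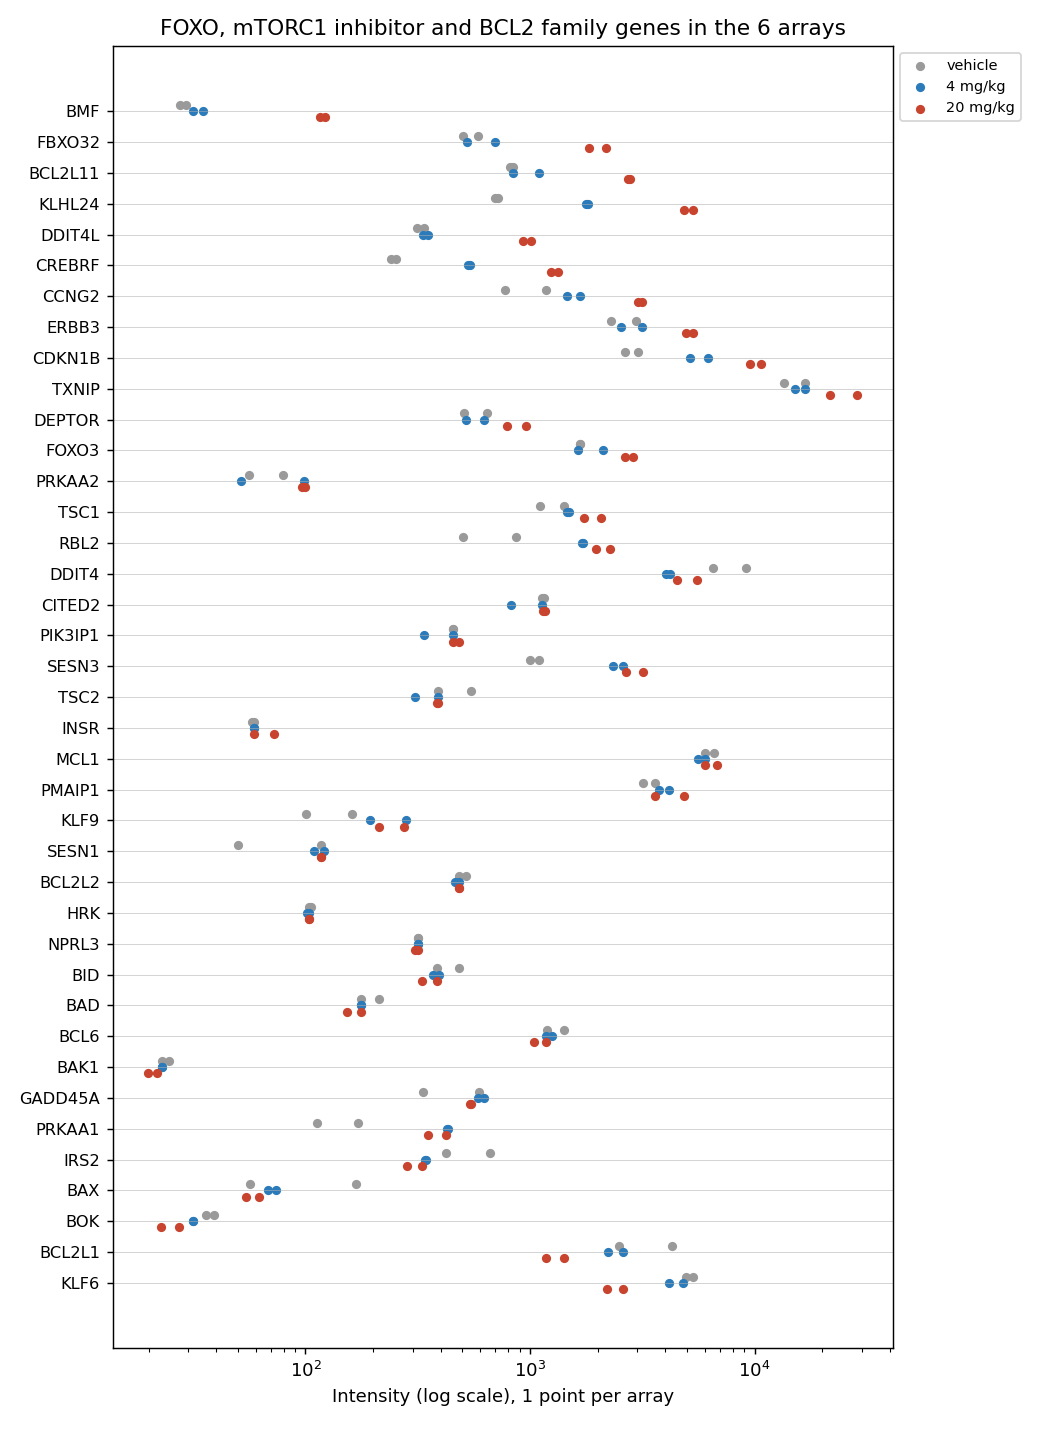
Intensities (log axis) of the tested members of the FOXO, mTORC1 inhibitor and BCL2 family lists, with 1 point per array; rows are genes, ordered by the difference between the doses from BMF to KLF6. In the top rows the 20 mg/kg points (red) stand to the right of the 4 mg/kg points (blue), which lie near the vehicle points (grey) for BMF, FBXO32, BCL2L11 and DDIT4L and between the other groups for KLHL24, CREBRF and CDKN1B; in the middle rows the groups lie close together.

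Secreted signals had the lowest median (-0.885) after the MAPK pathway output list and the Sprouty and SPRED inhibitors. Of 13 tested chemokines and cytokines none lay above 0, 11 lay below, 6 were at least 2-fold lower (1.3% of all tested genes) and 1 passed lower (0.243%). That 1 was CX3CL1, a membrane-bound chemokine for monocytes, T cells and NK cells. It read 3128 and 3829 with vehicle, 2350 and 2758 at 4 mg/kg and, at 20 mg/kg, 294 and 266. Both 20 mg/kg arrays lay far under the other 4, and the fall was 9.11-fold (-3.19 ± 0.15, adjusted p = 0.0313), with -2.49 on a second probe set. CXCL8, the neutrophil chemokine interleukin-8, read 16534 and 17329 against 2694 and 2418 (-2.73 ± 0.25, adjusted p = 0.0791), and -4.20 on a second probe set. IL6 read 60.5 and 47.9 against 13.3 in both 20 mg/kg arrays (-2.01 ± 0.20, adjusted p = 0.0812), and PTGS2, the inducible cyclooxygenase, 708 and 726 against 192 and 179 (-1.95 ± 0.25, adjusted p = 0.104).

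No gene of the STAT3 branch passed between the doses. STAT3 itself read 6833 and 8295 against 6879 and 6741 (-0.14 ± 0.11, adjusted p = 0.667), and PIM1, a kinase gene that STAT3 drives, 316 in both 4 mg/kg arrays against 306 and 332 (0.01 ± 0.12). SOCS3, the feedback inhibitor of STAT3 signalling, read 543 and 975 with vehicle, 147 and 271 at 4 mg/kg and, at 20 mg/kg, 129 and 103. Its difference between the doses was -0.79 ± 0.46 (adjusted p = 0.619), and leaving out replicate 1 or 2 of the 4 mg/kg arrays gave -1.23 and -0.35. IL6R, the receptor of IL6, was higher in value at 20 mg/kg, at 387 and 487 against 1128 and 1147 (1.39 ± 0.31, adjusted p = 0.213). CEBPD, a factor of the acute phase, read 5634 and 5690 against 2361 and 2234 (-1.30 ± 0.18, adjusted p = 0.117). None of the 23 tested genes of this list passed, and the median was -0.02.

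None of the 12 tested NF-kB genes passed (median 0.14), and none of the 26 of the interferon response and antigen presentation (median 0.15). REL, an NF-kB subunit, read 521 and 628 against 1374 and 1154 (1.14 ± 0.22, adjusted p = 0.179). GBP2, an interferon-induced GTPase, read 139 and 150 against 418 and 405 (1.51 ± 0.16, adjusted p = 0.0812), and 1.09 on a second probe set.

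Without a gene past the test were the lists of airway lineage factors (12 tested, median 0.05), oncofetal HMGA and LIN28 genes (4, -0.37), epithelial junctions and keratins (18, -0.06) and mesenchymal genes and integrins (13, -0.04). The same held for the urokinase system and metalloproteinases (16, 0.03), BMP and TGF-beta feedback (12, -0.27) and the circadian clock (10, -0.10). HMGA2, a chromatin protein of fetal tissue and tumours, read 1201 and 1436 with vehicle, 566 and 997 at 4 mg/kg, and 132 in both 20 mg/kg arrays (-2.51 ± 0.31, adjusted p = 0.104), but the mean over all its probe sets, dim ones included, gave -0.284. KRT18, a keratin of simple epithelium, read 10426 and 12384 against 4355 and 5822 (-1.17 ± 0.18, adjusted p = 0.125), and its partner KRT8 differed by -0.90 ± 0.12 (adjusted p = 0.11). MMP13, a collagenase, read 850 and 1107 with vehicle, 2368 and 2210 at 4 mg/kg and, at 20 mg/kg, 5566 and 4537 (1.14 ± 0.18, adjusted p = 0.132). None of the 16 tested NRF2 genes passed (median -0.14); the furthest was AKR1B10 (-1.04 ± 0.11, adjusted p = 0.0812).

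The labelled tissue held the markers of lung epithelium. All 10 were tested, and their summed intensity was 106510 and 108600 at 4 mg/kg against 90270 and 97258 at 20 mg/kg; the 2 sums at 20 mg/kg were the lower ones, KRT18 was the furthest apart, and none of the 10 passed. Fibroblast markers summed to 39172 and 38208 against 37694 and 42116, with LUM, PDGFRB and THY1 near the floor. Endothelial markers summed to 575 and 469 against 529 and 520, with CDH5, VWF and 5 other of the 9 near the floor. Leukocyte markers summed to 134 in both 4 mg/kg arrays against 132 and 133, with PTPRC and 3 other of the 8 near the floor, and red cell markers to 200 and 193 against 190 and 200. The sums of these 4 host-type lists overlapped or lay within 2 units of each other between the doses. The host cells are mouse cells and the probe sets human, so these sums do not show whether host cells differed between the doses.

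F3, tissue factor, which starts coagulation, was the 1 gene that passed among 11 tested YAP targets (median -0.07). Over all tested genes 0.243% passed lower. F3 read 2898 and 2579 with vehicle, 2259 and 2624 at 4 mg/kg and, at 20 mg/kg, 602 and 575, and fell by 2.05 ± 0.11 (4.14-fold, adjusted p = 0.0342). CCN1, a matrix protein on the same list, read 1112 and 1164 with vehicle and higher, 1247 and 1428, at 4 mg/kg. At 20 mg/kg it read 480 and 573 (-1.35 ± 0.12 between the doses, adjusted p = 0.0769). BAG3, a chaperone partner, was the 1 gene that passed among 15 tested heat shock and chaperone genes (median -0.07). It read 4440 and 4276 against 2911 and 2913 (-0.58 ± 0.03, adjusted p = 0.0342).

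The remaining falls that passed came from genes outside the lists. HAS3, a hyaluronan synthase, read 901 and 1128 with vehicle, 914 and 939 at 4 mg/kg and, at 20 mg/kg, 208 and 227 (-2.09 ± 0.13, adjusted p = 0.0443). TNFRSF12A, the receptor of the cytokine TWEAK, read 4038 and 4668 with vehicle, 3164 and 3224 at 4 mg/kg and, at 20 mg/kg, 978 and 1011 (-1.68 ± 0.08, adjusted p = 0.0337). SLC6A14, an amino acid transporter, read 4030 and 4327 at 4 mg/kg against 1737 and 1598 at 20 mg/kg (-1.32 ± 0.09, adjusted p = 0.0462). In these 3 genes the 4 mg/kg arrays lay much nearer to the vehicle arrays than to the 20 mg/kg arrays, and the doses were well apart.

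ANKRD22, a protein with ankyrin repeats, read 820 and 993 at 4 mg/kg against 166 and 192 at 20 mg/kg (-2.34 ± 0.15, adjusted p = 0.0444), and -0.946 on a second probe set. TRPM8, the cold-sensing ion channel, read 124 and 98.3 at 4 mg/kg and 24.0 in both 20 mg/kg arrays (-2.20 ± 0.13, adjusted p = 0.0421). UBASH3B, a phosphatase that acts on tyrosine kinase signalling, read 98.3 and 117 against 26.5 in both 20 mg/kg arrays (-2.02 ± 0.09, adjusted p = 0.0313). Its second probe set, close to 16 in both groups, gave -0.135 with overlap, so the fall of UBASH3B rests on 1 probe set. The further 10 genes that passed lower, named by list or chosen after their values were seen, were TENT5C, ENC1, FOXF2, TUBB3, PPP1R14B, SRM, COX20, PA2G4, BAG3 and PSMA7. They fell by between 0.37 (PSMA7, a proteasome subunit) and 1.23 (TENT5C).

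Of the 13 genes that passed higher, the 6 furthest were BMF, KLHL24, DDIT4L, ABCA1, CREBRF and MAB21L4. ABCA1, which exports cholesterol, read 629 and 728 with vehicle, 640 and 626 at 4 mg/kg and, at 20 mg/kg, 1578 and 1589 (1.32 ± 0.08, adjusted p = 0.0431), and 1.60 on a second probe set. MAB21L4 read 250 and 270 at 4 mg/kg against 579 and 563 at 20 mg/kg (1.14 ± 0.05, adjusted p = 0.0313). In both genes the 20 mg/kg arrays alone stood apart from the rest.

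The 7 further rises were under 2-fold. They were TLR1, a receptor of bacterial lipopeptides (0.91), FOXN3, a repressor of the forkhead family (0.77), AGPAT2, which makes phosphatidic acid (0.73), CBFA2T2, a corepressor (0.70), ZNF599, a zinc finger protein (0.50), UBE2H, a ubiquitin-conjugating enzyme (0.43), and DGKA, which turns diacylglycerol into phosphatidic acid (0.29). In each, both 20 mg/kg arrays lay above both 4 mg/kg arrays. Within a dose their arrays lay close together: those of CBFA2T2 read 88.0 and 88.2 against 143 in both (± 0.02 log2 units). Its second probe set gave 0.10. At 2-fold or more but outside the threshold, with the smallest p-values, were the histone gene H2BC5 (1.23 ± 0.09) and RGCC, a regulator of the cell cycle (1.21 ± 0.09), both with an adjusted p of 0.0562. A second probe set gave 0.151 for H2BC5, and the mean over all probe sets 0.402 for RGCC.

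Around the threshold, DGKA (0.29) and MAFF (-2.13), both with an adjusted p of 0.0462, lay just inside, and SPRED1 (-3.39, adjusted p = 0.0502), TRIM9 (0.68, adjusted p = 0.0505) and NRP1 (-1.44, adjusted p = 0.0505) just outside. Differences of very different size thus stand on either side of it.

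The levels with vehicle come from arrays that were not part of this difference, while the 4 mg/kg arrays enter both this comparison and any comparison of 4 mg/kg with vehicle. The 2 comparisons are therefore not independent, and the values are set side by side only. For HAS3, F3, DDIT4L and ABCA1 the 4 mg/kg arrays overlapped with the vehicle arrays. For DUSP6, CX3CL1, IER3, HK2, MAFF, KLHL24 and CREBRF they lay between vehicle and 20 mg/kg in every array.

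A second probe set of the same gene, where there was one above the level filter, gave a further reading of the same arrays. Of the 38 genes that passed 18 had one; all 18 pointed the same way, and 15 did not overlap between the doses. Of the 193 genes at least 2-fold apart 78 had one: 73 pointed the same way, 66 of these without overlap, and 30 were again at least 2-fold apart. None lay the other way without overlap. Over all 4117 tested genes with a second probe set, 2747 pointed the same way, and 206 lay the other way with no overlap on the second set. For the 54 lower genes the median size was 1.30 on the brightest and 0.71 on the second set, and for the 24 higher genes 1.25 and 1.04, so the sizes depend on which probe set reads the gene. Among genes that passed, ENC1 gave -2.39 on its second set and UBE2H 0.83, while AGPAT2 gave 0.47 and FOXN3 0.29; COX20 (-0.125) and DGKA (0.169) overlapped between the doses there. With the mean over all probe sets of a gene, dim ones included, the differences of ETV5 (-1.32), MAFF (-1.11), TRPM8 (-1.13), HAS3 (-1.06), SPRY1 (-0.716), TENT5C (-0.617), HK2 (-0.44) and ABCA1 (0.731) kept their direction at a smaller size. The sets read for CXCL8, H2BC5, TUBB3, PSMA7, PPP1R14B, KRT18 and KRT8 carry names that mark them as open to binding of near-identical transcripts, and their values are uncertain to that extent.

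**Figure D5:**
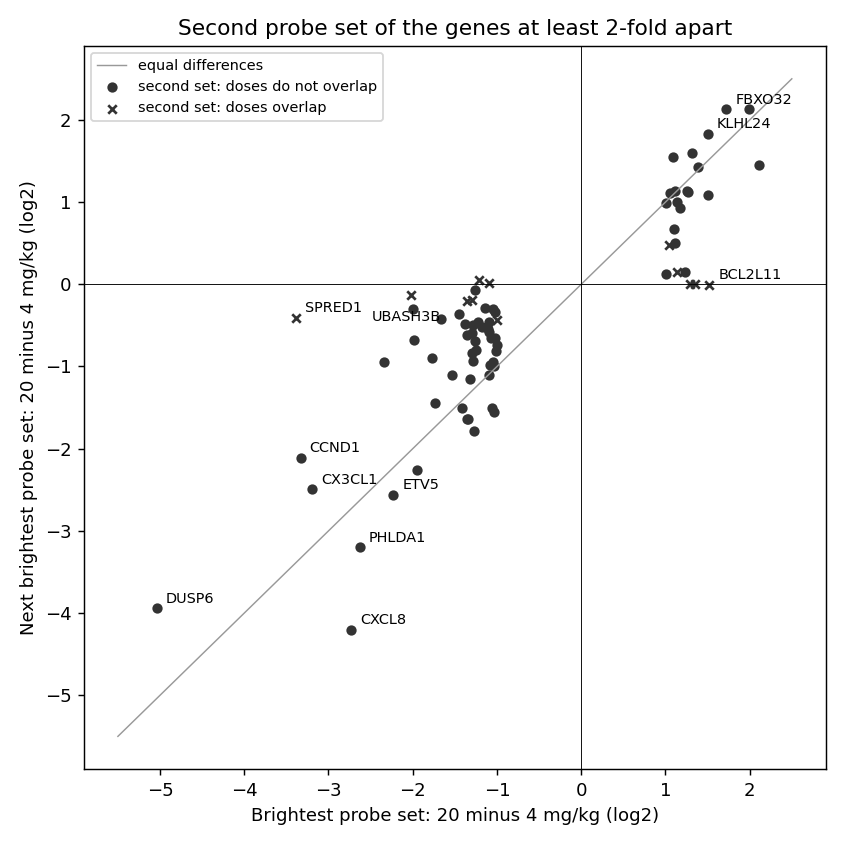
Difference between the doses (log2, 20 minus 4 mg/kg) on the next brightest probe set (vertical axis) against the brightest (horizontal axis) for the 78 genes at least 2-fold apart that have both; the line marks equal differences. DUSP6, CX3CL1, ETV5, PHLDA1 and KLHL24 lie far from 0 on both axes, while SPRED1, UBASH3B and BCL2L11 lie near 0 on the vertical axis (crosses, where the doses overlap on the second set).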

How the data were processed

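Total RNA of NCI-H2228 xenograft tumours was hybridised to 6 human arrays, 2 for each of vehicle, 4 mg/kg and 20 mg/kg. The deposited values are intensities on a linear scale for 54675 probe sets, which the authors obtained by GCRMA under R version 2.10.0, as given in the submitters' processing notes; this method corrects background and brings arrays to like distributions. Of the probe sets 41097 had 1 gene in the platform annotation, 1801 several and 11777 none listed. Intensities were turned into log2. Where several single-gene probe sets read a gene, the brightest on average across all 6 arrays stood for it; a mean log2 of at least 4 was required. limma 3.58.1 (lmFit, eBayes) in R 4.3.3 fitted all 6 arrays with 3 residual and 0.723 prior degrees of freedom, for the contrast 20 minus 4 mg/kg, two-sided, with Benjamini-Hochberg adjustment over 10271 genes and a threshold of 0.05; the fit was tested on simulated data. The number of arrays limits the precision, and intensities of different probe sets are not comparable as levels. Values within 1e-06 log2 units count as equal, and values within 1 log2 unit of the lowest intensity as near the floor.

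The members and the gene lists were chosen with earlier results of these data known. Genes are named by rule: the 15 genes that rose and the 15 that fell most, past the threshold and without overlap, filled up with the smallest p-values at 2-fold or more; from each list, the members past the threshold and those with the largest differences; and 20 genes of ALK signalling whatever their result. Other alternatives tried were fits of the treated arrays alone, with a replicate block, other level filters, log2(value + 16), other probe sets, other scalings, a trend in the spread, and leaving out tied genes or 1 array.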

Additional observations from a re-analysis of the deposited data

Results flagged for a closer look

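Probe sets with no gene listed were used in no comparison of genes. Of these, 2080 had a mean log2 of at least 4, and 24 were at least 2-fold apart without overlap, 11 higher and 13 lower at 20 mg/kg. Over all tested genes the shares were 1.88%, 0.574% higher and 1.3% lower, and the probe sets with no gene listed did not exceed them. In 5 of the 11 both 20 mg/kg arrays lay at least 2-fold above both 4 mg/kg and both vehicle arrays.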

How the results depend on the processing

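The 38 genes that passed (13 higher, 25 lower) numbered 0 (0 and 0) with the 4 treated arrays alone and 0 (0 and 0) with a replicate block, where 1472 had an unadjusted p under 0.05 in limma. They numbered 8 (2 and 6) with no level filter, 7 (1 and 6) on the next brightest probe sets, 330 (155 and 175) with quantile normalization, 494 (227 and 267) with centred arrays and 77 (24 and 53) without genes tied in all 3 groups. Leaving out 1 array gave from 0 to 218 genes (0 to 92 higher, 0 to 126 lower). The other alternatives, a level filter of 6, log2(value + 16), the mean of all probe sets, no _s_at or _x_at sets and a trend in the spread, gave 35 to 50. The count of genes at least 2-fold apart, added after seeing the data, was 75 (28 and 47) on the next brightest sets, 117 (38 and 79) on the mean of all sets and 183 to 274 (50 to 102 higher, 95 to 214 lower) without 1 array. Among the single genes followed through the alternatives, the direction turned in 4 cases. THBS1 turned to 0.00167 without _s_at and _x_at sets, and PDK1 to 0.0104 and BCL2L11 to -0.00522 on the next brightest sets. PIM1 turned to -0.0461 without 20 mg/kg replicate 2 (0.0703 without 20 mg/kg replicate 1). Other genes also turned on the next brightest sets, among them NEDD9 (-1.21 to 0.0534) and KLF5 (-0.457 to 0.214). The cause of these shifts was not tested. Whether the replicate numbers pair the arrays is not known. Deviations of same-numbered arrays correlated weakly, at 0.146, -0.118 and 0.127. The lowest intensities, near the floor, understate differences.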

Other observations

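Among genes outside the lists, several stood far apart between the doses without passing the test; they were chosen after their values were seen, and the differences are log2 values with limma's adjusted p. The largest differences above 0 were those of APOLD1, an endothelial early response gene, at 72.4 and 126 against 442 and 446 (2.22, adjusted p = 0.127), and UGT2B15, a steroid-conjugating enzyme, at 282 and 270 against 1545 and 921 (2.11, adjusted p = 0.107; a set open to near-identical transcripts). GLCCI1, a gene induced by glucocorticoids, read 771 and 984 against 3515 and 3410 (1.99, adjusted p = 0.0586). DLL1, a ligand of Notch receptors, read 407 and 433 against 1146 and 1256 (1.52, adjusted p = 0.0586), and 0.758 on the mean over all its probe sets.

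Lower in value were THBS1, a matrix protein, at 2112 and 2309 against 586 and 532 (-1.99, adjusted p = 0.0507; -0.68 on the next brightest probe set and 0.00167 without _s_at and _x_at sets), and TNFRSF10A, a death receptor for TRAIL, at 708 and 940 against 227 and 264 (-1.74, adjusted p = 0.0812). None of these values passed the threshold of 0.05.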
